A study of Mus musculus with 5 samples.

Results

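The comparison described here sets 1 RNA library of mouse caudate putamen taken 1 day after a photothrombotic stroke against 1 library taken 4 hours after it. The 2 libraries were chosen by their time labels, out of 5 in the series, and no measured value entered that choice. Both were made from male C57BL/6 mice aged 9 weeks. To block vessels, the dye rose bengal (100 mg/kg, into the peritoneum) was followed after 5 min by a 532 nm laser, set to 30 mW and left on for 2 min, whose fibre tip sat 3 mm below the dura. Each library pools tissue from 6 mice. Both groups received the dye, no allele or other drug distinguishes them, and the labels record no genotype beyond the strain. The other 3 libraries are a sham pool and stroke pools of day 3 and day 10, which are given beside the comparison as levels only. The sham pool is the left, contralateral side, lit before the dye, so it comes from animals that also carried a stroke, and the sources used here do not give their number. Each group is 1 library, so no difference below has a replicate check or a p-value.

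A photothrombotic stroke begins when light excites the dye inside vessels and platelets block them. In the first hours, neurons and glia in and around the ischaemic core switch on immediate early and stress genes, and the animal mounts a systemic hormonal stress response. Over the following day, dying cells release signals that draw neutrophils and then monocytes from the blood through chemokines, while microglia and astrocytes turn reactive. The caudate putamen is made up mostly of medium spiny neurons of the direct pathway, which carry the dopamine receptor Drd1, and of the indirect pathway, which carry Drd2 and enkephalin (Penk). In pooled bulk tissue, fewer cells of a type and less RNA per cell cannot be told apart.

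Levels are RPKM, reads per kilobase of exon, scaled to the size of the library. The read totals recovered from the steps of the RPKM values were 45952910 at 4 hours and 46323701 at day 1. Of the 19221 genes in the table, 11858 had at least 1 RPKM in either library and were analysed. The fold of a gene is log2((day 1 RPKM + 1)/(4 hours RPKM + 1)), which understates the difference of low genes. Where a level is written as 1 value to another, the first is that of 4 hours and the second that of day 1. The median fold of all genes analysed was -0.34 as deposited. The log2 shift between the libraries that median-of-ratios scaling divides out was -0.47, and the median after it was 0.00. Loci of ribosomal RNA took 26.5% of reads on genes at 4 hours and 34.4% at day 1, and their part in this shift was not tested. A gene is called higher or lower here where its fold was at least 1 or at most -1 both as deposited and after scaling.

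By this rule 345 genes were higher at day 1 (2.91% of those analysed) and 137 were lower (1.16%). As deposited alone, 345 were higher and 728 lower (6.14%). After scaling, 885 were higher (7.46%) and 137 lower. Which side is the larger one therefore turned with the scaling, and only the genes past the limit under both are named as higher or lower below. The 15 protein coding genes of largest difference upwards were Ccl12, Timp1, Tgm1, Ccl2, S100a9, Sprr1a, Lcn2, Ccl7, Serpina3n, S100a8, Lgals3, Ptx3, Wfdc17, Gfap and Tm4sf1. The 15 downwards included Tsc22d3, Crybb1, Sgk1, Depp1, Camk1g, Arrdc2, Lingo3, Ciart, Arel1 (whose exons overlap those of Fcf1), Penk, Vat1l, Ddit4, Mfsd2a and Rgs4. The first group holds chemokines, products of reactive astrocytes and genes of myeloid cells, and the second holds glucocorticoid-induced genes, a clock output and genes of medium spiny neurons.

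**Figure D1:**
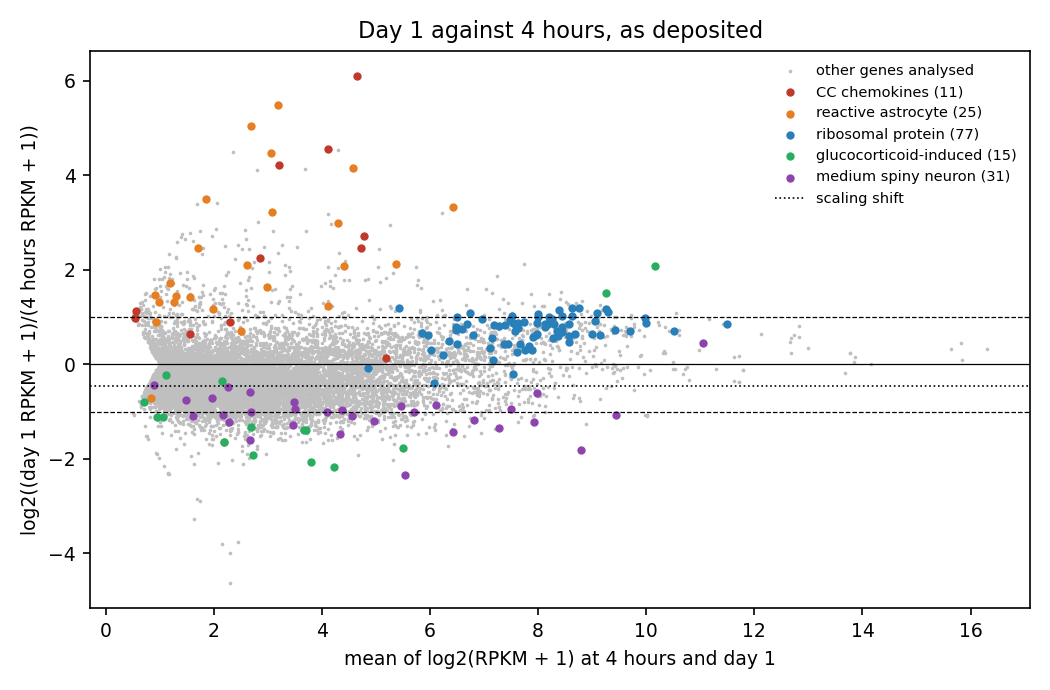
Log2 fold of day 1 against 4 hours (vertical axis, as deposited) against the mean of log2(RPKM + 1) of the same libraries (horizontal axis), 1 point per gene analysed, with 5 gene lists in colour. Dashed lines mark folds of 1 and -1, the dotted line the scaling shift of -0.47. CC chemokines and reactive astrocyte genes reach the top, ribosomal protein genes lie as a group above 0, and glucocorticoid-induced and medium spiny neuron genes lie below it apart from 2 metallothioneins and Pcp4.

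For 52 lists of genes the median fold was set beside that of all genes. A list is called higher or lower where its medians had that sign under both scalings. Each median also had to lie at least 0.2 from that of all genes on the same side. By this rule 21 lists were higher at day 1, 11 were lower and 20 had no direction. The 21 include endothelium and barrier, with a median of 0.0083 as deposited and 0.29 after scaling. They also include T, NK and B cell markers, with only 3 genes analysed. A list's count covers the members that reached 1 RPKM in either library, so a member silent at 4 hours enters only by being high at day 1. Over all members in the table the medians of many lists lay nearer to 0, for example 0.75 in place of 1.69 for neutrophil markers, 0.26 in place of 1.17 for monocyte and macrophage markers and 1.32 in place of 1.72 for reactive astrocyte genes. These counts describe the libraries and are no test of a list.

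**Figure D2:**
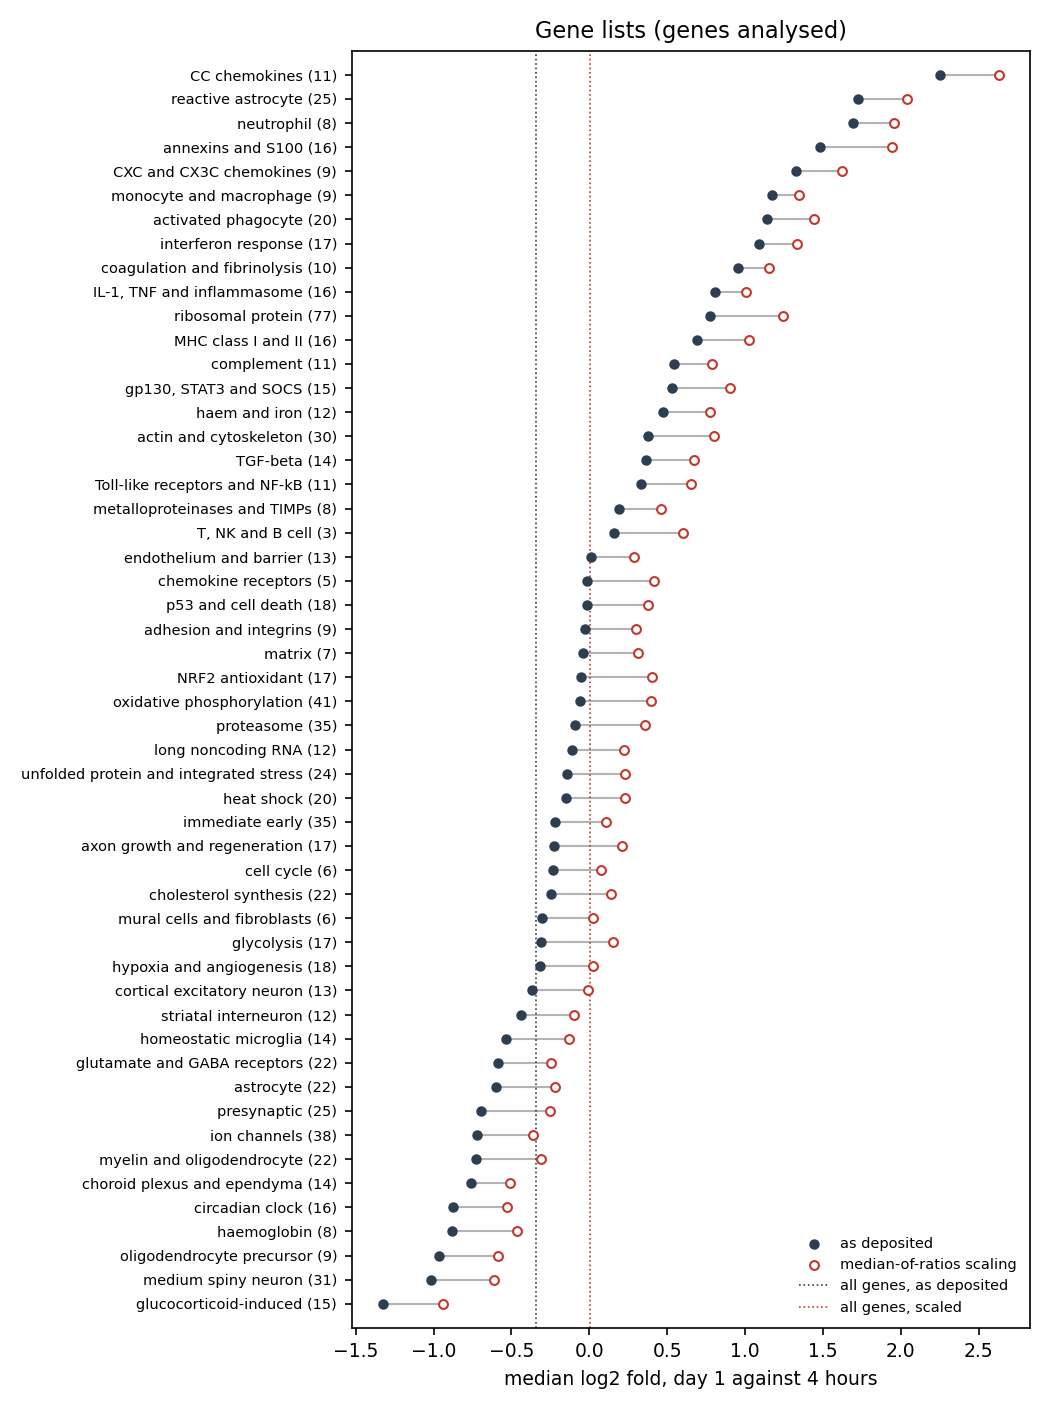
Median log2 fold of each gene list (horizontal axis; number of genes analysed in brackets) as deposited (filled points) and after median-of-ratios scaling (open points), with the medians of all genes as dotted lines. With this filter and pseudocount CC chemokines lie at the top (2.25 and 2.63) and glucocorticoid-induced genes at the bottom (-1.33 and -0.94); with no filter the top median is that of reactive astrocyte genes, 1.32 against 0.98 for CC chemokines.

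Chemokines that attract monocytes were among the genes of largest difference. Of 16 CC chemokines listed, 11 were analysed and 7 were higher at day 1, with a median fold of 2.25 as deposited and 2.63 after scaling. Over all 15 in the table the median as deposited was 0.98. Ccl12, a ligand of the monocyte receptor Ccr2 (chr11:82101845-82103400, plus strand), was at 206 RPKM on day 1 against 2.03 at 4 hours, with 21.1 in sham, 25.7 on day 3 and 15.3 on day 10. The day 1 library stood far above the other 4, and the 4 hour library was the lowest of all. Its log2 fold was 6.10 as deposited and 6.48 after scaling, and the ratio of its RPKM was 102 (95% counting interval 68.9 to 158). That interval, like all others here, covers counting error only.

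Ccl2, the main monocyte attractant of the family (chr11:82035571-82037453, plus strand), was at 83 RPKM on day 1 against 2.58 at 4 hours, with 5.93 in sham, 10.4 on day 3 and 2.86 on day 10. Its log2 fold was 4.55 as deposited and 4.95 after scaling, and its ratio 32.2 (95% counting interval 25.2 to 41.6). Ccl7, a further Ccr2 ligand (chr11:82045712-82047525, plus strand), was at 38.7 RPKM on day 1 against 1.14 at 4 hours, with 4.11 in sham, 3.69 on day 3 and 0.858 on day 10. For both genes the day 1 level exceeded each of the other 4 by far, and the level at 4 hours was below that of sham.

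These genes are neighbours. Of 5 protein coding genes analysed between positions 82035571 and 82116799 of chromosome 11 (build GRCm38), 4 were higher at day 1, namely Ccl2, Ccl7, Ccl12 and Ccl8. A second group of the same chromosome, from 83587882 to 83706268, holds Ccl6, Ccl3, Ccl4 and Wfdc17, and all 4 protein coding genes analysed there were higher. The bounds of both groups were set by the outermost genes called higher. The share called inside them therefore follows in part from the choice. Ccl9, just before the second group, had a log2 fold of 0.89 as deposited and 1.26 after scaling and was not called. Ccl3, a ligand of Ccr1, was at 69.1 RPKM on day 1 against 9.74 at 4 hours, with 3.37 in sham, 10.4 on day 3 and 9.49 on day 10. Ccl4, its close relative, was at 61.3 RPKM on day 1 against 10.3 at 4 hours, with 3.61 in sham, 9.32 on day 3 and 10.0 on day 10. Unlike the Ccr2 ligands, both were already above sham at 4 hours. Wfdc17, a small secreted protein of myeloid cells, had no read at 4 hours and 234 at day 1. Against a floor of 3 reads its ratio was 77.4, but the lower end of its counting interval was 31.0. Ccl8 likewise had no read at 4 hours and was at 1.18 RPKM at day 1, with its highest level of 8.36 at day 10. Against the same floor the ratio of Ccl8 was 9.26, but the lower end of its counting interval was 3.29.

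Among the CXC chemokines, the neutrophil attractants were higher and the neuronal chemokine was not. Of 15 CXC and CX3C chemokines listed, 9 were analysed and 6 were higher, with a median as deposited of 1.33, or 0.31 over all 13 in the table. Cxcl1, which recruits neutrophils through Cxcr2 (chr5:90891241-90893115, plus strand), was at 14.2 RPKM on day 1 against 1.4 at 4 hours, with 0.677 in sham, 1.64 on day 3 and 1.29 on day 10. Cxcl2, a second Cxcr2 ligand, was at 10.0 RPKM on day 1 against 0.526 at 4 hours, with 0.129 in sham, 0.0687 on day 3 and 0.463 on day 10. Both were under 2 RPKM in every library except day 1. Cxcl10, an interferon-induced attractant of T cells, differed from them in that sham was the highest library, with 6.69 RPKM on day 1 against 0.406 at 4 hours, with 7.99 in sham, 3.68 on day 3 and 5.03 on day 10. Cx3cl1, made by neurons and read by microglia through Cx3cr1, was at 178 RPKM at 4 hours and 83.9 RPKM at day 1, a log2 fold of -1.08 as deposited and -0.61 after scaling, so it passed the limit only as deposited.

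Cxcl1, Cxcl2, Cxcl3 and Pf4 lie together on chromosome 5 between 90772435 and 90905938, and all 4 protein coding genes analysed there were higher. These bounds too were set by the outermost genes called higher, so that share follows in part from the choice. Cxcl3 was at 0.00622 RPKM at 4 hours and 1.52 RPKM at day 1. Pf4, known from platelets, was at 1.69 RPKM at 4 hours and 13.7 RPKM at day 1. The promoters of the 3 CXC genes are shown because they share a run of bases that matches the letters of an NF-kB site (GGGAA and TTCC with 1 base of any kind between them), in capitals below. The stretches come from the RefSeq promoter table on GRCm38.p6, which runs from 250 bases before the gene's start to 50 after it.
Cxcl1: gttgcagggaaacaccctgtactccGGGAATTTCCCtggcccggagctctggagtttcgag
Cxcl2: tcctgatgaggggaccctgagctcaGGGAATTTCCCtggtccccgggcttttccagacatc
Cxcl3: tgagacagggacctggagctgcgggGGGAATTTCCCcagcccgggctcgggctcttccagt

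The Cxcl1 stretch lies at chr5:90891149-90891209, plus strand, the Cxcl2 stretch at chr5:90903777-90903837, plus strand and the Cxcl3 stretch at chr5:90786003-90786063, plus strand. The matching run begins 71 bases before the start of Cxcl1, 97 before that of Cxcl2 and 73 before that of Cxcl3. Searched on both strands, these letters were found in 7 of the 200 promoters of higher genes that the table holds (3.5%), in none of 65 promoters of lower genes and in 28 of 7597 promoters of all genes analysed (0.369%). The other 4 higher genes with a match were AW112010, Cxcl10, Gbp2 and Ifitm3. A match is a description of the letters and does not show that the factor binds there.

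Cytokines of the interleukin 1 and gp130 families were mostly low, and several became measurable at day 1. Il1b, the main inflammatory interleukin 1, was at 3.45 RPKM on day 1 against 0.183 at 4 hours, with 0.163 in sham, 0.199 on day 3 and 0.939 on day 10. Il1rn, the natural antagonist of its receptor, was at 5.14 RPKM on day 1 against 0.0236 at 4 hours, with 0.129 in sham, 0.227 on day 3 and 0.500 on day 10. Lif, a ligand that signals through gp130 and STAT3, was at 2.87 RPKM on day 1 against 0.23 at 4 hours, with 0.327 in sham, 0.609 on day 3 and 0.254 on day 10. Each of the 3 was under 1 RPKM in the other 4 libraries and above 2 at day 1. Among receptors, Tnfrsf1a, the main receptor of TNF, was at 3.14 RPKM at 4 hours and 15.1 RPKM at day 1, while Tnf itself was at 1.09 RPKM at 4 hours and 2.00 RPKM at day 1 and did not pass the limit. Socs3, which shuts off gp130 signalling, was at 4.03 RPKM at 4 hours and 14.2 RPKM at day 1, and Stat3 was at 3.47 RPKM at 4 hours and 5.44 RPKM at day 1 with a log2 fold of only 0.53 as deposited and 0.91 after scaling. Il6, a gp130 cytokine, stayed under 1 RPKM, with 0.0359 at 4 hours and 0.774 at day 1.

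Of the interleukin 1, TNF and inflammasome genes, 7 of 16 analysed were higher and none was lower (median 0.81 as deposited and 1.00 after scaling, and 0.40 as deposited with no filter). Of the gp130, STAT3 and SOCS genes, 5 of 15 were higher (median 0.53 as deposited and 0.91 after scaling, and 0.10 as deposited with no filter), and 3 of these 5 were ligands, namely Lif, Clcf1 and Il11. Of the Toll-like receptor and NF-kB genes, 3 of 11 were higher. They were Cd14, the co-receptor for lipopolysaccharide (9.37 to 42.7 RPKM), Bcl3, a nuclear partner of NF-kB (0.202 to 3.25 RPKM), and the adaptor Myd88 (2.00 to 5.99 RPKM). Of the Toll-like receptors themselves, Tlr2 was at 2.01 and 2.14 RPKM, and the others were under 1 RPKM in both libraries, from Tlr4 at 0.00392 and 0.0661 to Tlr9 at 0.444 and 0.0745.

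S100a8 and S100a9, which pair as calprotectin and are abundant in neutrophils, were low in every library except day 1. S100a9 (chr3:90692632-90695721, minus strand) was at 93.4 RPKM on day 1 against 3.08 at 4 hours, with 5.5 in sham, 4.53 on day 3 and 5.59 on day 10, a log2 fold of 4.53 as deposited and 4.94 after scaling. S100a8 (chr3:90668978-90670035, plus strand) was at 53 RPKM on day 1 against 2.1 at 4 hours, with 4.65 in sham, 3.82 on day 3 and 3.93 on day 10. The other 4 libraries were under 6 RPKM for both genes. Of 21 neutrophil markers listed, 14 were in the table and 8 were analysed, of which 5 were higher. The summed level of the 14 was 164 RPKM on day 1 against 8.48 at 4 hours, with 13.6 in sham, 17.9 on day 3 and 21 on day 10. All 14 were above their 4 hour level and above sham at day 1, and most of the day 1 sum was S100a8 and S100a9. Retnlg, a neutrophil secretory gene, was at 1.32 RPKM at 4 hours and 5.93 RPKM at day 1, Stfa2l1, a cystatin of the same cells, at 0.105 RPKM at 4 hours and 2.87 RPKM at day 1, and Cxcr2, the receptor that guides them, at 0 and 0.177 RPKM.

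Some monocyte and macrophage markers were also higher. Of 21 in the table, 9 were analysed and 5 of these were higher, and the summed level was 46.2 RPKM on day 1 against 12.2 at 4 hours, with 23 in sham, 143 on day 3 and 276 on day 10. Lyz2, lysozyme of myeloid cells, was at 26.4 RPKM on day 1 against 3.94 at 4 hours, with 10.7 in sham, 97.9 on day 3 and 245 on day 10, so that the day 1 level lay between those of 4 hours and day 3. Arg1, an enzyme of reparative macrophages, was at 1.37 RPKM on day 1 against 0.0195 at 4 hours, with 0.16 in sham, 10.2 on day 3 and 0.0841 on day 10, with day 3 well above the rest. Ccr2, the receptor for the monocyte-attracting chemokines above, was at 0.0192 RPKM on day 1 against 0 at 4 hours, with 0.0198 in sham, 0.063 on day 3 and 0.0709 on day 10. Its ligands were high at day 1, while the Ccr2 transcript was near 0 in all 5 libraries. Of 14 T, NK and B cell markers in the table, 11 were under 1 RPKM in both libraries, among them Cd3e at 0.0267 and 0.0106 RPKM and Cd79a at 0.134 and 0.252. The other 3 were Cd4 (16.1 to 9.27 RPKM), Trbc2 (15.2 to 27.9 RPKM) and Ighm (14.7 to 16.5 RPKM), and on these 3 alone the list had a median of 0.16 as deposited and 0.60 after scaling, with none past the limit under both scalings.

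A block on chromosome 3, from 90514435 to 90695721, held 7 protein coding genes called higher, most of them S100 genes. They were S100a13, S100a16, Gm42674, S100a4, S100a6, S100a8 and S100a9. No other protein coding gene analysed lay inside, but the bounds were set by the outermost of these genes, so this follows in part from the choice. S100a6, a calcium sensor of glia and fibroblasts, was at 66.1 RPKM on day 1 against 15 at 4 hours, with 17.6 in sham, 201 on day 3 and 59.2 on day 10. S100a11, an annexin partner, was at 49 RPKM on day 1 against 5.41 at 4 hours, with 6.36 in sham, 120.2 on day 3 and 22.5 on day 10. Both were highest at day 3, unlike S100a8 and S100a9. Of the annexin and S100 list, 9 of 16 genes analysed were higher. S100b, the member typical of astrocytes, was at 64.6 RPKM at 4 hours and 52.4 RPKM at day 1 and did not pass the limit.

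Of 14 markers of resting microglia analysed, 3 were lower at day 1 and none was higher, and the list had no direction (median -0.54 as deposited and -0.13 after scaling). The 3 were Crybb1, Selplg and Tmem119. Crybb1, a crystallin gene that microglia express in mouse brain (chr5:112255815-112269585, plus strand), was at 1.05 RPKM on day 1 against 7.75 at 4 hours, with 9.29 in sham, 21.8 on day 3 and 26.3 on day 10. Its ratio of day 1 to 4 hours was 0.136 (95% counting interval 0.0846 to 0.209), and the day 1 library was the lowest of all 5. Selplg, a glycoprotein ligand of selectins on microglia, was at 2.44 RPKM on day 1 against 10.2 at 4 hours, with 9.93 in sham, 39.6 on day 3 and 27.3 on day 10. Tmem119, a microglial membrane protein, was at 3.98 RPKM on day 1 against 12.5 at 4 hours, with 14 in sham, 48.1 on day 3 and 46.2 on day 10. All 3 were close to sham at 4 hours, lowest at day 1 and above sham at day 3. Cx3cr1 was at 2.2 RPKM at 4 hours and 1.54 RPKM at day 1, and P2ry12, an ADP receptor of resting microglia, was under 1 RPKM in both libraries (0.838 and 0.17). Aif1, which encodes the microglial marker IBA1, was at 2.06 RPKM at 4 hours and 2.72 RPKM at day 1 and did not differ past the limit, and the summed level of the 18 markers was 94.7 RPKM on day 1 against 152 at 4 hours, with 136 in sham, 552 on day 3 and 534 on day 10.

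The activated phagocyte list was higher, with 11 of 20 genes analysed higher (median 1.14 as deposited and 1.44 after scaling, and 0.65 as deposited with no filter). Lgals3, galectin 3 (chr14:47367751-47386160, plus strand), was at 28.1 RPKM on day 1 against 0.679 at 4 hours, with 2.37 in sham, 198 on day 3 and 38.5 on day 10, a log2 fold of 4.11 as deposited and 4.43 after scaling. Plin2, which coats lipid droplets, was at 17 RPKM on day 1 against 2.22 at 4 hours, with 2.31 in sham, 77.4 on day 3 and 14.4 on day 10. Lgals1, galectin 1, was at 45 RPKM on day 1 against 9.14 at 4 hours, with 16.3 in sham, 509 on day 3 and 78.8 on day 10. All 3 were below or near sham at 4 hours, above it at day 1 and highest at day 3, so day 1 lay between the levels of 4 hours and day 3. Some members did not follow: Ctsd, the lysosomal protease cathepsin D, was at 175 RPKM at 4 hours and 122 RPKM at day 1, and Apoe, the lipid carrier, at 726 RPKM at 4 hours and 513 RPKM at day 1.

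Reactive astrocyte genes were the list with the most members past the limit. Of 37 listed, 25 were analysed and 21 were higher, with a median of 1.72 as deposited and 2.04 after scaling. By the names these sets carry in the literature, 9 of 10 pan-reactive genes analysed (13 listed) were higher. So were 5 of 8 analysed of the set named A1 (12 listed) and 7 of 7 analysed of the set named A2 (12 listed). In the A1 set 1 gene was lower under both scalings. A member near 0 at 4 hours, such as Tgm1 at 0.13 RPKM, was analysed only through its day 1 level. These shares therefore follow in part from the filter. The sum over the 36 members in the table was 818 RPKM on day 1 against 103 at 4 hours, with 281 in sham, 1418 on day 3 and 866 on day 10. In 27 of the 36, the 4 hour level was below sham.

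Gfap, the intermediate filament protein of astrocytes (chr11:102887336-102900912, minus strand), was at 272 RPKM on day 1 against 26.3 at 4 hours, with 102 in sham, 509 on day 3 and 234 on day 10. Its ratio was 10.3 (95% counting interval 9.93 to 10.8), a tight interval because 5102 and 53181 reads lay behind it. The 4 hour library was the lowest and day 1 the second highest. Timp1, the secreted inhibitor of metalloproteinases (chrX:20870166-20874735, plus strand), was at 60.4 RPKM on day 1 against 0.368 at 4 hours, with 11.1 in sham, 100.0 on day 3 and 24.6 on day 10, with only 15 reads at 4 hours and a ratio of 164 (95% counting interval 81.4 to 395). Serpina3n, a secreted protease inhibitor (chr12:104406729-104414329, plus strand), was at 99.4 RPKM on day 1 against 4.66 at 4 hours, with 33 in sham, 264 on day 3 and 139 on day 10. For these 3 genes the step from 4 hours to day 1 had 2 portions, a level under sham at 4 hours and a level above sham at day 1.

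Lcn2, lipocalin 2, which binds bacterial iron carriers (chr2:32384633-32388252, minus strand), was at 38.3 RPKM on day 1 against 0.78 at 4 hours, with 10.3 in sham, 50.5 on day 3 and 22.7 on day 10. Tgm1, a transglutaminase of the set named A2 (chr14:55700009-55713926, minus strand), was at 36.2 RPKM on day 1 against 0.13 at 4 hours, with 4.71 in sham, 34.6 on day 3 and 2.8 on day 10, and since its reads did not come out whole it has no counting interval. A predicted gene, Gm49067, overlaps Tgm1 on the opposite strand, and the sources used here do not say if reads were counted by strand, so the reads of these genes cannot be told apart. Ptx3, a soluble pattern receptor (chr3:66219910-66225805, plus strand), was at 11.1 RPKM on day 1 against 0.0811 at 4 hours, with 2.4 in sham, 0.591 on day 3 and 1.53 on day 10. Day 1 stood alone for Ptx3, whereas Lcn2 was higher still at day 3 and Tgm1 nearly as high. Tm4sf1, a membrane protein of endothelium and of the A2 set, was at 24.9 RPKM on day 1 against 1.78 at 4 hours, with 2.68 in sham, 8.54 on day 3 and 2.58 on day 10.

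General astrocyte markers gave other values. Of 22 astrocyte markers, none was higher and none passed the lower limit under both scalings, although 6 did as deposited. Glul, glutamine synthetase, was at 129 RPKM on day 1 against 304 at 4 hours, with 185 in sham, 149.8 on day 3 and 183 on day 10. Gja1, the gap junction protein connexin 43, was at 1.05 RPKM on day 1 against 3.81 at 4 hours, with 2.57 in sham, 1.67 on day 3 and 3.41 on day 10. Both were lower at day 1 than at 4 hours and than in sham. Aldh1l1, a folate enzyme used to mark astrocytes, was at 12 RPKM at 4 hours and 11.7 RPKM at day 1, nearly level.

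**Figure D3:**
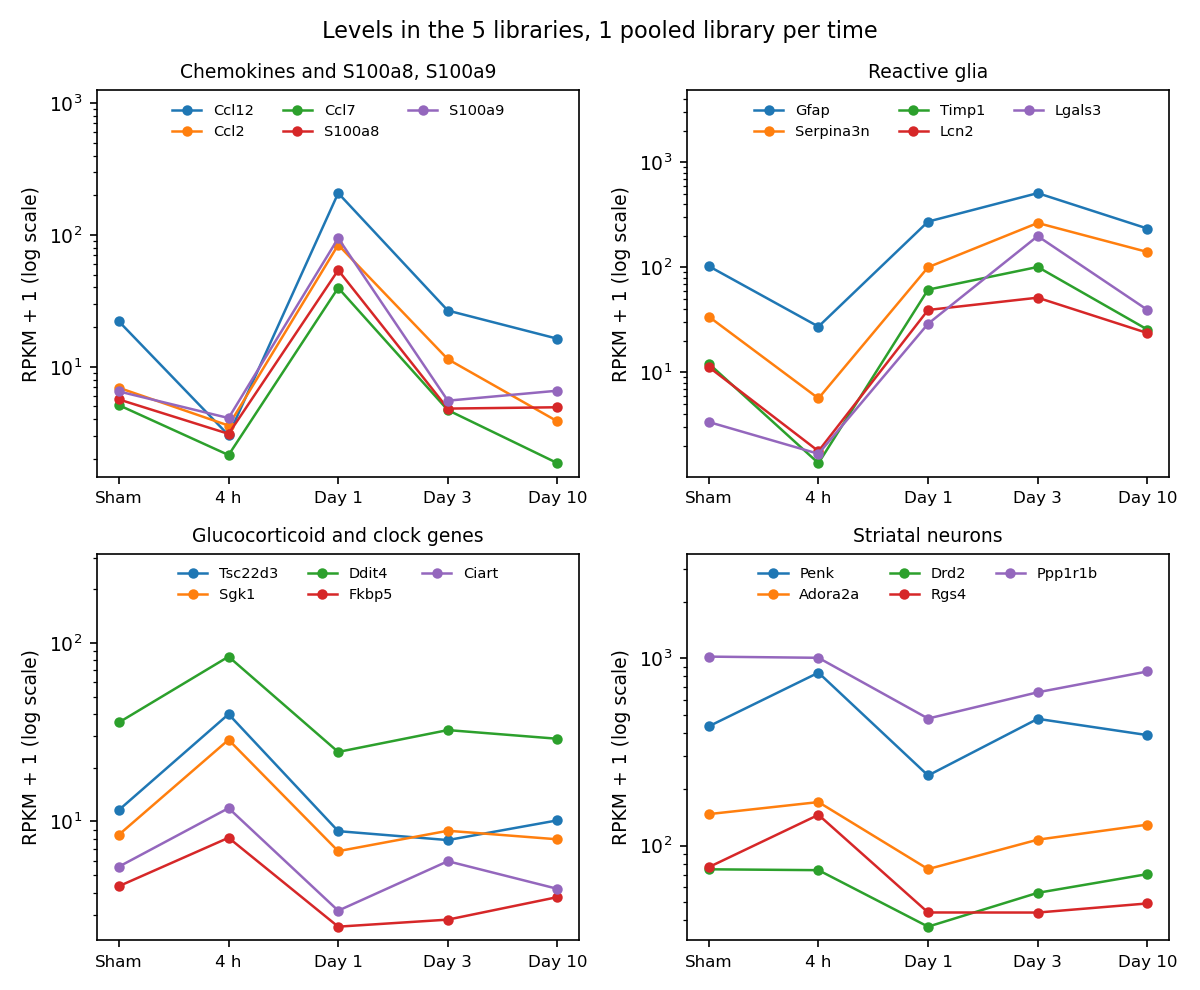
RPKM + 1 on a log axis for 20 genes in the 5 libraries, 1 pooled library per point; the lines only join the points of a gene. The chemokines with S100a8 and S100a9 peak at day 1, the reactive glia genes have their lowest point at 4 hours, and the glucocorticoid-induced genes and Ciart have their highest point at 4 hours.

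Interferon-induced and antigen presentation genes were mostly below sham at 4 hours. In 30 of 31 interferon response genes in the table the 4 hour level was below sham, and in 28 the day 1 level was above that of 4 hours. Of 17 analysed, 10 were higher (median 1.09 as deposited and 1.33 after scaling, and 0.48 as deposited with no filter). Ifitm3, a membrane protein that blocks virus entry, was at 106 RPKM on day 1 against 12.8 at 4 hours, with 42.5 in sham, 320.3 on day 3 and 137 on day 10. Isg15, a ubiquitin-like modifier, was at 12.3 RPKM on day 1 against 1.47 at 4 hours, with 12.5 in sham, 32.9 on day 3 and 26.2 on day 10. Irf7, a transcription factor that amplifies the response, was at 1.61 RPKM on day 1 against 0.363 at 4 hours, with 3.73 in sham, 13.7 on day 3 and 19.5 on day 10. Ifitm3 at day 1 exceeded sham, Isg15 was nearly level with it, and Irf7 stayed below it. The log2 fold of Irf7 was 0.94 as deposited and 1.15 after scaling, so it passed the limit only after scaling.

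The promoter of Isg15 is printed because it carries 3 overlapping matches of the letters of an interferon response element (GAAA and GAAA with 2 bases of any kind between them), which are in capitals. They begin 78, 72 and 66 bases before the start.
Isg15: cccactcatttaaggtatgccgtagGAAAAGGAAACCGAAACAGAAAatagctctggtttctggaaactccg

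This stretch lies at chr4:156200850-156200921, minus strand of GRCm38.p6, from RefSeq. These letters were found on either strand in 24 of 200 promoters of higher genes (12%), 2 of 65 of lower genes (3.08%) and 208 of 7597 of all genes analysed (2.74%). They were in 8 of 14 promoters of the interferon list, and in 7 of 57 of the ribosomal protein list (12.3%). TGANTCA, the letters of an AP-1 site, was found in 26 of the 200 (13%), 1 of the 65 (1.54%) and 346 of all 7597 (4.55%).

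B2m, the invariant chain of MHC class I, was at 98.5 RPKM on day 1 against 31.6 at 4 hours, with 51.3 in sham, 249 on day 3 and 238 on day 10. H2-D1, a class I heavy chain, was at 25.6 RPKM on day 1 against 10.3 at 4 hours, with 35.8 in sham, 134 on day 3 and 254 on day 10. Of 10 class I and peptide loading genes analysed, 6 were higher, against 0 of 6 class II genes. Reads of the near-identical H2 genes may be split among copies. Both complement genes named next were highest on day 10. C1qa, part of the first component, was at 91.3 RPKM on day 1 against 80.1 at 4 hours, with 108 in sham, 780.1 on day 3 and 1044 on day 10, and C4b, a component of the classical pathway, at 4.13 RPKM on day 1 against 1.12 at 4 hours, with 5.96 in sham, 13.3 on day 3 and 24.4 on day 10. Of 11 complement genes analysed, 3 were higher at day 1, namely C4b, C5ar1 and Serping1.

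Stress genes differed by branch. Hspb1, the small heat shock protein HSP27 (chr5:135887919-135889563, plus strand), was at 54.6 RPKM on day 1 against 6.04 at 4 hours, with 9.11 in sham, 17.1 on day 3 and 12.2 on day 10. Hspa1a and Hspa1b, neighbouring and near-identical genes of the inducible HSP70 whose reads cannot be assigned safely to one of them, were at 10.5 to 38.3 RPKM and 8.87 to 35.3 RPKM from 4 hours to day 1, above sham (2.18 and 1.96) at both times. The constitutive chaperone genes Hspa8 and Hsp90ab1 were at 289.7 to 180.2 RPKM and 210.0 to 112 RPKM and did not pass the limit under either scaling. The list of 20 had 3 higher and no direction as a whole. A processed copy of Hspb1, Hsp25-ps1, was at 4.73 to 50.8 RPKM, and its reads may come from Hspb1.

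Hmox1, the enzyme that breaks down haem (chr8:75093621-75100589, plus strand), was at 226 RPKM on day 1 against 23.5 at 4 hours, with 31.8 in sham, 343 on day 3 and 16.8 on day 10. Its log2 fold was 3.21 as deposited and 3.67 after scaling, and both day 1 and day 3 stood far above the other libraries. Ftl1, the light chain of the iron store ferritin, was at 366 to 875 RPKM, and Fth1, the heavy chain, at 2026 to 3660.1 RPKM. Mt2 and Mt1, metallothioneins that bind zinc, were at 559 to 2372 RPKM and 363 to 1029 RPKM. Of the other antioxidant genes under NRF2, none of the 17 analysed except Hmox1 was higher, with Nqo1 at 3.53 to 3.27 RPKM and Gclm at 35.6 to 53.4 RPKM.

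Hilpda, a lipid droplet protein induced by low oxygen, was at 20.1 RPKM on day 1 against 4.42 at 4 hours, with 4.16 in sham, 24.8 on day 3 and 5.57 on day 10. Angptl4, a lipase inhibitor of the same list, was at 2.21 to 6.21 RPKM. Vegfa, the vascular growth factor, was at 2.67 to 2.03 RPKM and Slc2a1, the glucose transporter of barrier endothelium, at 28 to 19.5 RPKM, neither past the limit. The hypoxia list had no direction, and none of 17 glycolytic genes was past the limit. In the unfolded protein and integrated stress list only Sdf2l1, an endoplasmic reticulum chaperone partner, was higher (8.11 to 18.9 RPKM). Tnfrsf12a, the receptor for TWEAK, was at 77.1 RPKM on day 1 against 13.4 at 4 hours, with 10.5 in sham, 31.8 on day 3 and 6.01 on day 10, and Gdf15, a secreted stress signal, at 0.611 to 4.9 RPKM.

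Among genes of axon growth, Sprr1a stood apart. Sprr1a, a small proline-rich protein known from injured neurons (chr3:92483952-92485895, minus strand), was at 23.3 RPKM on day 1 against 0.081 at 4 hours, with 0.911 in sham, 2.23 on day 3 and 0.517 on day 10. Only 3 reads were counted at 4 hours against 870 at day 1, a ratio of 288 (95% counting interval 66.9 to 4010.3). Day 1 was the only library above 3 RPKM. Atf3, a factor of the injury response, was at 16.4 RPKM on day 1 against 5.48 at 4 hours, with 0.961 in sham, 9.49 on day 3 and 3.62 on day 10, and Gap43, a growth cone protein, at 42.4 to 19.1 RPKM. Of the list of 17, 3 were higher and 2 were lower as deposited, but 0 were lower after scaling. The list had no direction. The Sprr1a promoter has 2 matches of TGANTCA, which begin 146 and 116 bases before the start and are in capitals, shown because AP-1 letters were found in a larger share of higher than of lower promoters.
Sprr1a: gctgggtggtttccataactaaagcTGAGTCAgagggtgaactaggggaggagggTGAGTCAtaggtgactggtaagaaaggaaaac

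This stretch lies at chr3:92485966-92486052, minus strand of GRCm38.p6, from RefSeq.

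Immediate early genes, which are switched on within minutes of a stimulus, were not one group. Npas4, a factor induced by neuronal activity, was at 2.46 RPKM on day 1 against 9.36 at 4 hours, with 1.39 in sham, 2.17 on day 3 and 2.01 on day 10, and it was the gene of this list that was lower under both scalings. Ier3, an early stress gene, was at 44.3 RPKM on day 1 against 7.91 at 4 hours, with 5.83 in sham, 21.4 on day 3 and 8.58 on day 10. Atf3 and Fosl1, both AP-1 partners, were also higher, the latter at 3.34 to 9.16 RPKM. Fos itself was at 9.46 RPKM on day 1 against 12.1 at 4 hours, with 2.48 in sham, 3.09 on day 3 and 2.58 on day 10, with a log2 fold of -0.33 as deposited and 0.10 after scaling, so its level differed by less than the limit and its sign turned with the scaling. Of 9 genes of the Egr, Nr4a and activity group none was higher, with Egr3 at 15.3 to 6.00 RPKM and Nr4a1 at 21.5 to 10.3 RPKM.

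Genes of the vessel wall, coagulation and matrix gave single large differences. Plaur, the receptor for urokinase, was at 1.63 to 6.48 RPKM, and Plat, the tissue plasminogen activator, at 6.39 to 2.17 RPKM. Anxa2 and S100a10, which together hold plasminogen at the cell surface, were at 1.27 to 12 RPKM and 19 to 85.6 RPKM. Of 10 genes of this list, 4 were higher and none was lower under both scalings. Mmp3, a matrix protease, was at 5.95 RPKM on day 1 against 0.0242 at 4 hours, with 0.247 in sham, 1.22 on day 3 and 4.78 on day 10. Timp3, a matrix-bound inhibitor, was at 3.7 to 0.914 RPKM, opposite to Timp1, and passed the limit only as deposited. Mmp9, the protease of neutrophils and endothelium, was under 1 RPKM in both (0.0861 and 0.75).

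Mfsd2a, which carries lipids and limits transcytosis at the blood-brain barrier (chr4:122946850-122961188, minus strand), was at 2.81 RPKM on day 1 against 11.7 at 4 hours, with 4.99 in sham, 5.07 on day 3 and 3.69 on day 10, a log2 fold of -1.74 as deposited and -1.35 after scaling. The tight junction gene Cldn5 was at 15.2 to 17.8 RPKM and the endothelial cadherin Cdh5 at 1.45 to 1.46 RPKM, neither past the limit. Tagln, an actin-binding protein of smooth muscle, was at 30.6 RPKM on day 1 against 9.06 at 4 hours, with 6.44 in sham, 50.6 on day 3 and 7.35 on day 10. Collagen genes of fibroblasts were near 0, with Col1a1 at 0.385 and 0.184 RPKM. Of 19 genes of the G2 and mitosis phases none reached 1 RPKM in either library, with Mki67 at 0.0238 and 0.00429 RPKM.

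Ribosomal protein genes were higher as a family by a small step. In 74 of 77 genes the day 1 level was above that of 4 hours, and in all 77 it was above sham. The median fold was 0.78 as deposited and 1.24 after scaling, and 15 of them passed the limit under both scalings, against 60 after scaling alone. Rps14, of the small subunit, was at 914 RPKM on day 1 against 408 at 4 hours, with 598 in sham, 967 on day 3 and 718 on day 10, and Rpl32, of the large subunit, at 654 RPKM on day 1 against 288 at 4 hours, with 338 in sham, 828 on day 3 and 491 on day 10. Summed over the family the level was 33012 RPKM on day 1 against 19052 at 4 hours, with 18782 in sham, 33251 on day 3 and 23181 on day 10, with day 1 and day 3 alike. Ribosomal protein genes have many processed copies in the genome, and reads may be split among them.

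Their transcripts are short, and the fold moved with exon length across all protein coding genes. In 5 bins of exon length from shortest to longest, the median fold as deposited was -0.01, -0.30, -0.40, -0.46 and -0.51. The share of genes higher at day 1 was 7.68% in the shortest bin (51 to 2140 bases) and 0.318% in the longest (6519 to 41155 bases). The share of lower genes did not fall steadily with length. From the shortest bin to the longest it was 0.582%, 1.32%, 1.165%, 1.38% and 0.688%, higher in the middle bins than at the ends. Without the ribosomal protein genes the shortest bin had a median of -0.03. Centred on genes of similar length, a step chosen after the data were seen, the medians were 0.98 for ribosomal protein genes, 2.41 for CC chemokines, 2.09 for reactive astrocyte genes and -0.94 for glucocorticoid-induced genes. The part of exon length in any single gene's difference was not tested.

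**Figure D4:**
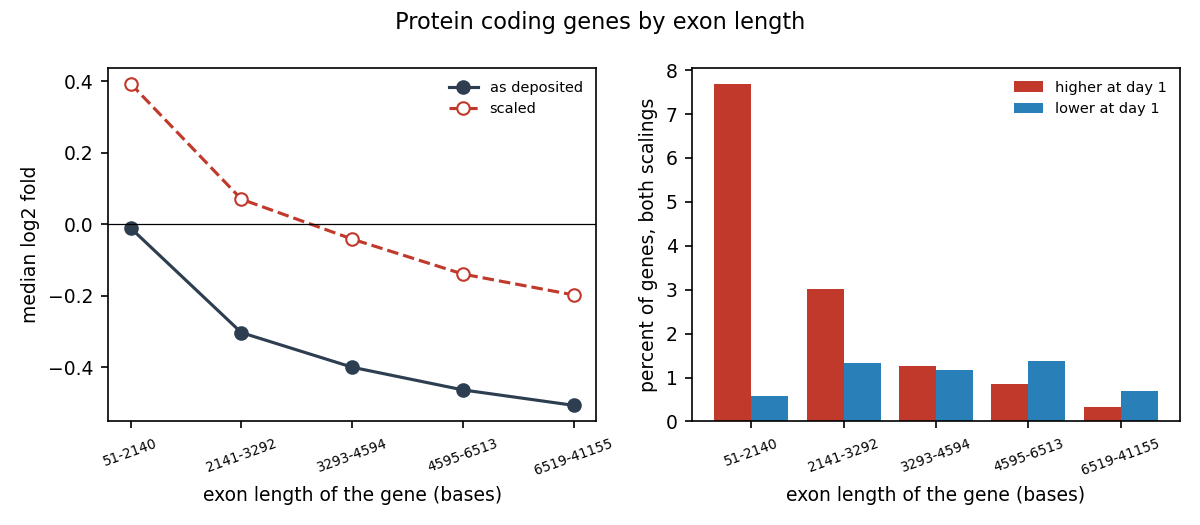
Protein coding genes in 5 bins of exon length: the left panel gives the median log2 fold of each bin as deposited and after scaling, the right panel the percent of genes higher (red) and lower (blue) at day 1 under both scalings. The median falls from -0.01 to -0.51 and the percent higher from 7.68 to 0.318 with length.

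With the filter used here, glucocorticoid-induced genes had the lowest median of the 52 lists, -1.33 as deposited and -0.94 after scaling. Of 15 analysed, 10 were lower as deposited, 5 of them under both scalings, and the 2 that were higher are the metallothioneins Mt1 and Mt2, which metals also induce. Tsc22d3, the leucine zipper protein GILZ (chrX:140539528-140600659, minus strand), was at 7.83 RPKM on day 1 against 38.9 at 4 hours, with 10.6 in sham, 6.87 on day 3 and 9.14 on day 10. Its ratio was 0.201 (95% counting interval 0.186 to 0.217), and the 4 hour library stood far above 4 others that lay between 6 and 11 RPKM. Sgk1, a kinase that controls ion transport (chr10:21882184-21999903, plus strand), was at 5.82 RPKM on day 1 against 27.7 at 4 hours, with 7.44 in sham, 7.87 on day 3 and 6.95 on day 10. Ddit4, an inhibitor of mTORC1 that low oxygen also induces (chr10:59949669-59951834, minus strand), was at 23.5 RPKM on day 1 against 82.7 at 4 hours, with 34.9 in sham, 31.5 on day 3 and 28 on day 10. In each case the 4 hour level was over sham and the day 1 level under it.

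Fkbp5, a co-chaperone that dampens the glucocorticoid receptor, was at 1.58 RPKM on day 1 against 7.11 at 4 hours, with 3.34 in sham, 1.82 on day 3 and 2.77 on day 10. Arrdc2, an arrestin-domain protein, was at 2.39 RPKM on day 1 against 11.9 at 4 hours, with 4.21 in sham, 1.35 on day 3 and 2.47 on day 10. Depp1, a regulator of autophagy under FOXO factors, was at 1.51 RPKM on day 1 against 9.17 at 4 hours, with 2.62 in sham, 2.82 on day 3 and 2.62 on day 10. Again only the 4 hour library was high. Klf9, a transcription factor that the receptor induces, was at 20.2 to 7.09 RPKM and Errfi1, an inhibitor of the EGF receptor, at 9.18 to 3.06 RPKM, both past the limit only as deposited.

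Clock genes were lower as a group, with a median of -0.87 as deposited and -0.53 after scaling. Of 16 analysed, 6 were lower as deposited and 2 under both scalings, namely Ciart and Usp2. Ciart, a repressor in the clock loop (chr3:95878503-95882251, minus strand), was at 2.17 RPKM on day 1 against 10.9 at 4 hours, with 4.59 in sham, 4.99 on day 3 and 3.2 on day 10. Usp2, a deubiquitinase whose transcript cycles, was at 3.5 RPKM on day 1 against 11 at 4 hours, with 5.72 in sham, 4.46 on day 3 and 5.52 on day 10. Per1, which both the clock and glucocorticoids induce, was at 6.83 RPKM on day 1 against 19.6 at 4 hours, with 10.3 in sham, 8.15 on day 3 and 9.34 on day 10, and Dbp, a clock output factor, at 25.1 RPKM on day 1 against 59.9 at 4 hours, with 40.1 in sham, 43 on day 3 and 37.9 on day 10. All 4 were highest at 4 hours and lowest at day 1. The sources used here do not give the hour of day at which each pool was taken, so time after stroke and time of day cannot be told apart for these genes.

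The Ciart promoter is printed because it holds 3 copies of CACGTG, the E-box read by clock factors, in capitals, which begin 116, 58 and 44 bases before the start.
Ciart: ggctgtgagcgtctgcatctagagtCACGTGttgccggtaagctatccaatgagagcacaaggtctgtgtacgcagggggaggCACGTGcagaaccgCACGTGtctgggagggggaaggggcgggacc

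This stretch lies at chr3:95882242-95882369, minus strand of GRCm38.p6, from RefSeq. CACGTG was found in 5 of 14 promoters of the clock list, in 7 of 65 of lower genes (10.8%), in 16 of 200 of higher genes (8%) and in 784 of 7597 of all genes analysed (10.3%), so the share among lower genes was close to that among all genes.

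Genes of medium spiny neurons were lower at day 1 than at 4 hours. Of 31 analysed, 18 were lower as deposited and 4 under both scalings, among them Penk, Drd1 and Arpp21, and the median was -1.02 as deposited and -0.61 after scaling. Penk, the enkephalin precursor (chr4:4133531-4138819, minus strand), was at 236 RPKM on day 1 against 836 at 4 hours, with 432 in sham, 474 on day 3 and 388 on day 10, with a ratio of 0.282 (95% counting interval 0.275 to 0.289). A830012C17Rik overlaps it on the opposite strand. Drd1 was at 2.68 RPKM on day 1 against 10.1 at 4 hours, with 7.6 in sham, 4.25 on day 3 and 6.3 on day 10. The 4 hour level of both was above sham and the day 1 level below it.

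By pathway, 2 of 6 direct pathway genes and 5 of 6 indirect pathway genes were lower as deposited, with median folds of -0.92 and -1.09. After scaling the counts were 1 of 6 in each, with medians of -0.49 and -0.68. The pathways were not compared by a test. Drd2 was at 36 RPKM on day 1 against 73.1 at 4 hours, with 73.8 in sham, 55.1 on day 3 and 69.5 on day 10 and Adora2a, the adenosine receptor of the indirect pathway, at 169.9 to 74 RPKM. Tac1 and Pdyn, which encode the peptides substance P and dynorphin of the direct pathway, were at 58.9 to 31.5 RPKM and 13.7 to 7.48 RPKM. Ppp1r1b, the phosphoprotein DARPP-32, was at 476 RPKM on day 1 against 1004 at 4 hours, with 1019 in sham, 657 on day 3 and 849 on day 10. Pcp4, a short calmodulin-binding peptide gene, was the 1 member analysed that lay above its 4 hour level, at 1811 to 2471 RPKM.

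Other neuronal lists lay nearer to all genes. The presynaptic median was -0.69 as deposited and -0.25 after scaling, that of ion channels -0.72 as deposited and -0.36 after scaling and that of glutamate and GABA receptors -0.59 as deposited and -0.25 after scaling. Slc32a1, the vesicular GABA transporter, was at 79.4 to 27.3 RPKM, and Gad1, a GABA-synthesising enzyme, at 11.2 to 3.74 RPKM. Kcnk2 and Kcna5, potassium channels, were at 15 to 4.42 RPKM and 5.63 to 1.34 RPKM and were the ion channel genes lower under both scalings. Rgs4, which ends G protein signals, was at 43 RPKM on day 1 against 145 at 4 hours, with 75.9 in sham, 43 on day 3 and 48.2 on day 10. Camk1g, a calcium-dependent kinase, was at 2.17 RPKM on day 1 against 11.6 at 4 hours, with 6.03 in sham, 3.94 on day 3 and 4.17 on day 10, and Lingo3, a leucine-rich membrane protein, at 12.2 RPKM on day 1 against 48.7 at 4 hours, with 33.2 in sham, 16.1 on day 3 and 22.9 on day 10.

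Interneuron and cortical lists had no direction. Sst, somatostatin, was at 327 to 277 RPKM and Npy at 118 to 118 RPKM, while Slc18a3, the vesicular acetylcholine transporter, was at 5.1 to 1.48 RPKM. Slc17a7, the glutamate transporter of cortical projection neurons, was at 86.6 RPKM on day 1 against 84.2 at 4 hours, with 59.1 in sham, 56.5 on day 3 and 50.0 on day 10, so this cortical marker was present in every library and nearly level between 4 hours and day 1. Nrgn, a postsynaptic calmodulin-binding protein of forebrain neurons, was at 1504 to 715 RPKM.

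Oligodendrocyte genes were split. Mal, a myelin lipid raft protein, was at 21.6 RPKM on day 1 against 71.5 at 4 hours, with 23.7 in sham, 16.3 on day 3 and 16.8 on day 10, and it was the 1 myelin gene lower under both scalings, while Mbp, myelin basic protein, was at 1029 RPKM on day 1 against 896 at 4 hours, with 611 in sham, 480.5 on day 3 and 651 on day 10. Apod and Klk6, a lipid carrier and a protease, were higher at 109.7 to 271 RPKM and 10.9 to 27.1 RPKM. Of 9 precursor genes analysed, 4 were lower as deposited and 2 under both scalings, namely Olig1 and Gpr17. The median was -0.96 as deposited and -0.59 after scaling, and -0.45 as deposited with no filter. Olig1, a lineage factor, was at 31.9 RPKM on day 1 against 90.9 at 4 hours, with 43.6 in sham, 61.6 on day 3 and 47.1 on day 10, and Gpr17, a receptor of committed precursors, at 1.17 RPKM on day 1 against 6.06 at 4 hours, with 3.98 in sham, 3.68 on day 3 and 6.29 on day 10.

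Transcripts of neighbouring tissue differed between the pools. Ttr, the defining transcript of choroid plexus, was at 303 RPKM on day 1 against 729 at 4 hours, with 77.4 in sham, 19.6 on day 3 and 0.205 on day 10. The sum of the 26 choroid plexus and ependyma genes was 340.3 RPKM on day 1 against 798 at 4 hours, with 109 in sham, 175 on day 3 and 51 on day 10, most of it Ttr at 4 hours and on day 1, with the highest level at 4 hours. Enpp2, which choroid plexus shares with oligodendrocytes, was at 14.7 to 4.74 RPKM. Haemoglobin genes, whose copies share reads, were at 1455 to 693 RPKM for Hba-a1 and 1062 to 922 RPKM for Hbb-bs. The part of either in the differences above was not tested.

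Small RNA loci also moved between the libraries. Of 43 small nuclear RNA genes analysed, 24 (55.8%) were higher at day 1, and reads on this class were 47010 in sham, 16897 at 4 hours and 41497 at day 1, so the 4 hour library was the low one. Rnu1b6, a copy of U1, had 4 and 69 reads at 4 hours and day 1. Of 206 miRNA loci analysed, 17 were higher (8.25%) and 25 lower (12.1%). Mir147 was among the higher, with 1 read at 4 hours and 46 at day 1, a ratio of 45.6 (95% counting interval 4.45 to 47982), but it lies in an exon of AA467197, which was itself at 0.127 to 6.73 RPKM. Mir7050 likewise lies in Fxyd5, which was at 0.768 to 3.96 RPKM. Reads of such a locus cannot be told apart from those of its host.

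The lower loci included 13 of brain miRNAs, picked out here after their values were seen. Added up over loci, they had 366 reads at 4 hours and 241 on day 3, against 31 in sham, 5 on day 1 and 3 on day 10. All 25 lower loci, added up in the same way, had 709 reads at 4 hours and 471 on day 3, against 193 in sham, 65 on day 1 and 220 on day 10. The same reads may be counted at more than 1 locus, as Mir9-1, Mir9-2 and Mir9-3 had 77, 78 and 79 at 4 hours. Neither the sums nor the number of loci therefore count separate reads. The summed reads of the miRNA class were not lower, with 329944 at 4 hours and 386368 on day 1. The median fold of the 206 miRNA loci analysed was -0.47 as deposited and -0.06 after scaling. For all genes analysed it was -0.34 and 0.00. The mature sequences, from RefSeq on GRCm38.p6, are printed to show which of these loci share a mature RNA or a seed. For miR-9, miR-125b, miR-128 and let-7f more than 1 of the loci gives the same mature RNA, and reads on it cannot be assigned to one copy. The seed, bases 2 to 8, is in capitals.
miR-9-5p: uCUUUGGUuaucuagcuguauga
miR-99a-5p: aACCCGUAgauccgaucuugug
miR-125b-5p: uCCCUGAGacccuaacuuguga
miR-128-3p: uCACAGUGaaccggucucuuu
miR-7a-5p: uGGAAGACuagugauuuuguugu
let-7c-5p: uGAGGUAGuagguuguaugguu
let-7f-5p: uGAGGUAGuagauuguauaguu
let-7g-5p: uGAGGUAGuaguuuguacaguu

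The 3 let-7 forms share the seed GAGGUAG, and the other 5 have a seed each. Mir9-2 (chr13:83738814-83738885, plus strand), 1 of 3 loci of miR-9, which is abundant in neural tissue, had 78 reads at 4 hours against 0 on day 1, with 3 in sham, 51 on day 3 and 0 on day 10. Against a floor of 3 reads that is 26.2-fold lower at day 1 than at 4 hours. The counting interval of the Mir9-2 ratio of day 1 to 4 hours reached up to 0.0984, a smaller difference. Mir9-1 (chr3:88215598-88215686, plus strand) had 77 reads at 4 hours against 1 on day 1, with 1 in sham, 52 on day 3 and 1 on day 10, and Mir9-3 (chr7:79505264-79505353, plus strand) had 79 reads at 4 hours against 2 on day 1, with 1 in sham, 52 on day 3 and 0 on day 10. The 3 copies thus had almost the same number of reads in every library. Gm25641, annotated on the opposite strand of Mir9-1, had 78 reads at 4 hours against 1 on day 1, with 1 in sham, 52 on day 3 and 2 on day 10. Mir99a (chr16:77598936-77599000, plus strand) had 26 reads at 4 hours against 0 on day 1, with 5 in sham, 22 on day 3 and 0 on day 10, and Mir7-2 18 reads at 4 hours against 0 on day 1, with 0 in sham, 7 on day 3 and 0 on day 10. Which arm of a hairpin the reads cover is not recorded in the table.

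**Figure D5:**
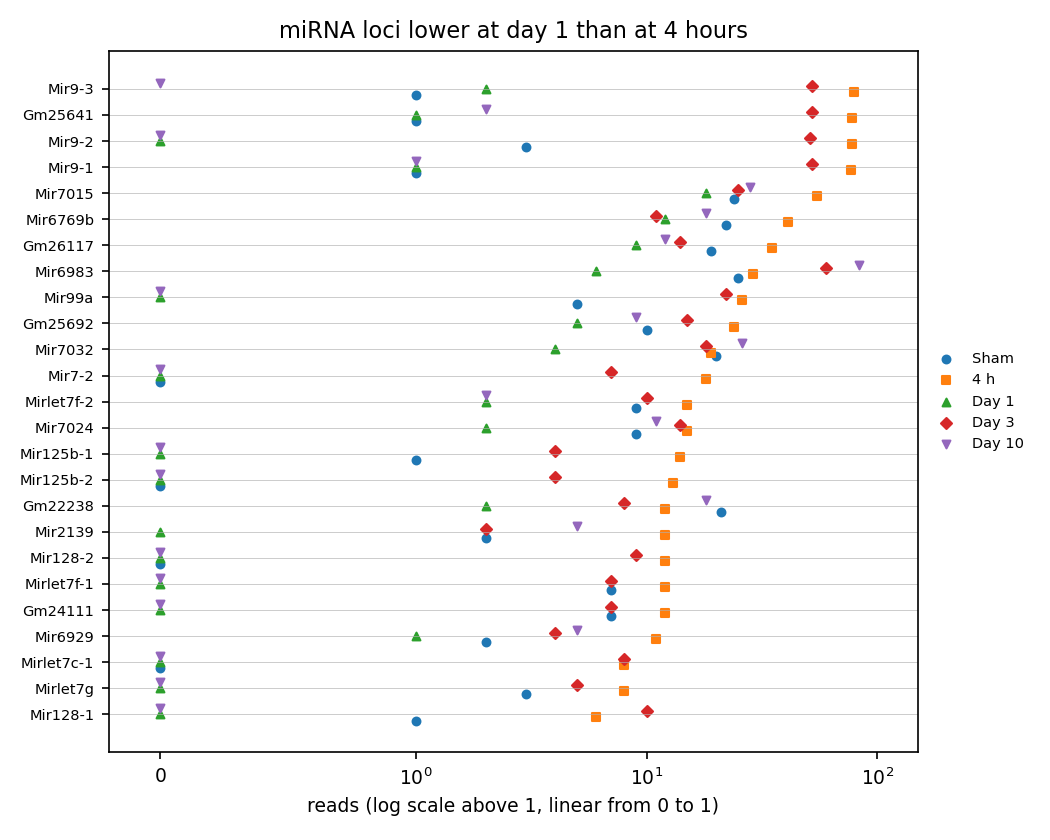
Reads recovered on the 25 miRNA loci that were lower at day 1 than at 4 hours, 1 row per locus and 1 symbol per library (log axis above 1 read, linear from 0 to 1). For the Mir9, Mir99a, Mir7-2, Mir125b and Mir128 loci the 4 hour and day 3 symbols lie at 4 to 79 reads and those of day 1 and day 10 at 0 to 2.

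The levels of the higher and lower genes were also set beside the other libraries. These genes were chosen for their difference between 4 hours and day 1, so the place of those libraries among the 5 follows in part from the choice, and nothing is read from these counts. Of the 345 higher genes, 273 were below sham at 4 hours, 323 were above sham at day 1 and 251 were both. The highest level of the 5 was at day 1 for 133, at day 3 for 152 and at day 10 for 57. Of the 137 lower genes, 125 had their highest level at 4 hours. Among these 137, 39 were at least 2-fold above sham at 4 hours only, 35 were at least 2-fold below sham at day 1 only, 1 was both and 62 were neither.

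The authors' deposited table gives its own log2 fold for this pair of libraries and a GFOLD value, a fold shrunk towards 0 where reads are few. In the authors' deposited table the GFOLD value was 6.20 for Ccl12, 3.32 for Gfap and -2.22 for Tsc22d3. At the same limit of 1, 319 genes were higher and 1035 lower by the authors' deposited GFOLD value, and 275 of the 345 and 627 of the 728 genes counted as deposited were among them.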

How the data were processed

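Total RNA of caudate putamen, pooled from 6 mice per stroke library, was sequenced as 1 library per group. Listed in the submitters' processing notes are HISAT2 2.1.0, Trimmomatic 0.36 and StringTie 1.3.4d, with build GRCm38. Per the file headers, the authors deposited RPKM values per gene and library, and log2 folds and GFOLD values, a log2 fold shrunk where reads are few, per pair; the sources used here do not give the annotation, the counting or its use of strand. Identifiers were matched to GENCODE mouse release M21 (19179 of 19221).

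Folds were computed from the deposited RPKM with a pseudocount of 1 over genes with at least 1 RPKM in either library, and again after median-of-ratios scaling over 18590 genes above 0 in both. Python 3.11.15, numpy 2.4.6, pandas 2.3.3, scipy 1.17.1 and matplotlib 3.10.9 were used. RPKM times exon length gave whole reads, within 0.02, for 90.4% to 90.5% of values under 5000 reads, which set the totals (42261786 to 48013847 in the 5 libraries). Counting intervals are exact conditional binomial (Clopper-Pearson) at 95%, on reads divided by 2 because both mates may be counted; they were given for 10642 genes and cover counting error only. The pipeline was tested on simulated data.

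Named genes were the 15 protein coding genes of largest fold each way with at least 5 RPKM in the higher library and past the limit under both scalings, the 5 noncoding genes each way, and for each list up to 5 members in its direction and 3 against it, with markers a comparison of roles turns on. The members and lists were chosen with earlier results of these data known. A few genes are not reported here. With 1 library per group no test between times was made.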

Additional observations from a re-analysis of the deposited data

How the results depend on the processing

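No paired analysis was possible because each group is 1 library, and for the same reason no replicate could be left out. The 345 higher and 728 lower genes as deposited became 885 and 137 with median-of-ratios scaling over 2 libraries, 901 and 130 over 5 libraries, and 874 and 142 with trimmed means of M-values. The lower count was 1815 with a pseudocount of 0.1, 1145 with 0.5, 240 without mitochondrial, ribosomal RNA, small RNA and predicted genes, and 257 when centred by exon length (chosen after seeing the data). Limits of 1.5 and 2 gave 146 and 74 higher, 81 and 19 lower. With median-of-ratios scaling 32 list medians were above 0 by the margin in place of 21. The TGF-beta median turned to -0.0624 with no filter on low values, and that of endothelium and barrier to -0.29 at a floor of 5 RPKM; the cause was not tested. The other 31 of 32 lists with a direction kept their sign under either filter, but the size of many medians did not hold: with no filter CC chemokines went from 2.25 to 0.98 and CXC and CX3C chemokines from 1.33 to 0.31. The top list was reactive astrocyte with no filter, and neutrophil at a floor of 5 RPKM (4.12, against 2.58 for CC chemokines) and at a pseudocount of 0.1 (2.97, against 2.81). The choice of named genes required both scalings, so their calls under these are no check. With 45952910 reads at 4 hours, 1 read was worth 0.0109 RPKM in a gene of 2 kb, and genes with a few reads at 4 hours have wide intervals.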
